A study of Arabidopsis thaliana with 12 samples.

Results

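RNA of 10-day-old dark-grown Arabidopsis thaliana seedlings of the cry1 mutant and of the wild type (WT) was compared after 1 h of continuous blue light. The blue light groups, called cry1_Blue and WT_Blue, hold 3 libraries each, 6 of the 12 in the series. The other 6 libraries came from seedlings of the same genotypes and age kept in the dark, cry1_Dark and WT_Dark. The light had a fluence rate of 40 µmol m-2 s-1. Genes with at least 1 TPM (a length-scaled share of a library's RNA) in 3 or more of the 6 blue light libraries were kept, 19381 of 32833. The cry1 allele is not given in the sources used here, and whole seedlings were taken, so root and shoot were measured together.

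CRY1 is a flavoprotein receptor of blue and UV-A light. In its excited state it inhibits the COP1-SPA ubiquitin ligase, so that light-promoting factors such as HY5 accumulate, and it also binds growth regulators of the PIF, Aux/IAA and DELLA families. In young seedlings it is best known for restraining hypocotyl elongation and promoting greening and pigment synthesis in blue light. Seedlings that lack it grow long and pale under blue light.

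The targeted gene matched the labels. CRY1 (AT4G08920, chr4:5723651-5727268) was at 0, 0.62 and 1.12 TPM in the cry1_Blue libraries, against 49.97, 23.8 and 33.0 TPM in WT_Blue. All 3 cry1_Blue libraries lay below the lowest WT_Blue library. The difference on the log2(TPM + 1) scale, cry1_Blue minus WT_Blue, was -4.54 ± 0.33 (± standard error), with an adjusted p of 2.08e-06 from limma with Benjamini-Hochberg correction over the 19381 genes. This scale is used for every difference below, and it understates the change of genes with low TPM. Of the genes given below with values in each library, all but CRY2 and PHYA had 3 cry1_Blue values wholly above or wholly below the 3 WT_Blue values. Most were picked by the size or adjusted p of this same difference, so the separation follows largely from the choice. Of all genes tested, 41.8% had no overlap between the groups. CRY2, the partner receptor of CRY1, was at 43.4, 54.7 and 57.2 TPM in cry1_Blue and 54.6, 40.6 and 41.9 TPM in WT_Blue, groups that overlapped (adjusted p 0.51).

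Between 18876 and 19373 genes reached 1 TPM in the cry1_Blue libraries, and between 18409 and 19094 in WT_Blue. TPM keeps no read depth, so the depth behind each value is unknown and a value of 0 is given only as listed at 0. Libraries of 1 group correlated at r = 0.953 to 0.978 across genes within cry1_Blue and at 0.967 to 0.971 within WT_Blue. Between the groups r was 0.85 to 0.91. Of the dark libraries cry1_Dark library 3 stood apart: it correlated at 0.939 to 0.958 with WT_Dark and at 0.961 with both others of cry1_Dark, which reached 0.883 to 0.927 with WT_Dark. Some results in the dark are also given without it. Whether a group's 3 libraries hold separately grown seedlings is not stated, so the p-values reflect variation among libraries that could be purely technical.

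At an adjusted p under 0.05, 2201 of the 19381 genes were higher in cry1_Blue (11.4%) and 2889 were lower (14.9%). The median difference over all genes was -0.03. Falls were more often large: 472 genes were lower by at least 2 on the log2 scale and 229 were higher by that much. The genes that were lower summed to between 8.84% and 9.72% of all TPM in the cry1_Blue libraries, against 20.8% to 27.7% in WT_Blue. The genes that were higher summed to between 16.5% and 18.6% in cry1_Blue and between 6.07% and 9.51% in WT_Blue. Both sets were picked by this contrast in these libraries, so the direction of both sums was fixed by the choice. Of the 5090 calls, 4980 had no overlap between the 3 values of each group, as had 41.8% of all genes tested. Higher calls were 43.2% of all calls, 48.6% after TMM-type scaling and 53.5% after quantile normalization, which moved the median gene to 0.04. Without WT_Blue library 2, 1256 genes were higher and 2092 lower.

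**Figure D1:**
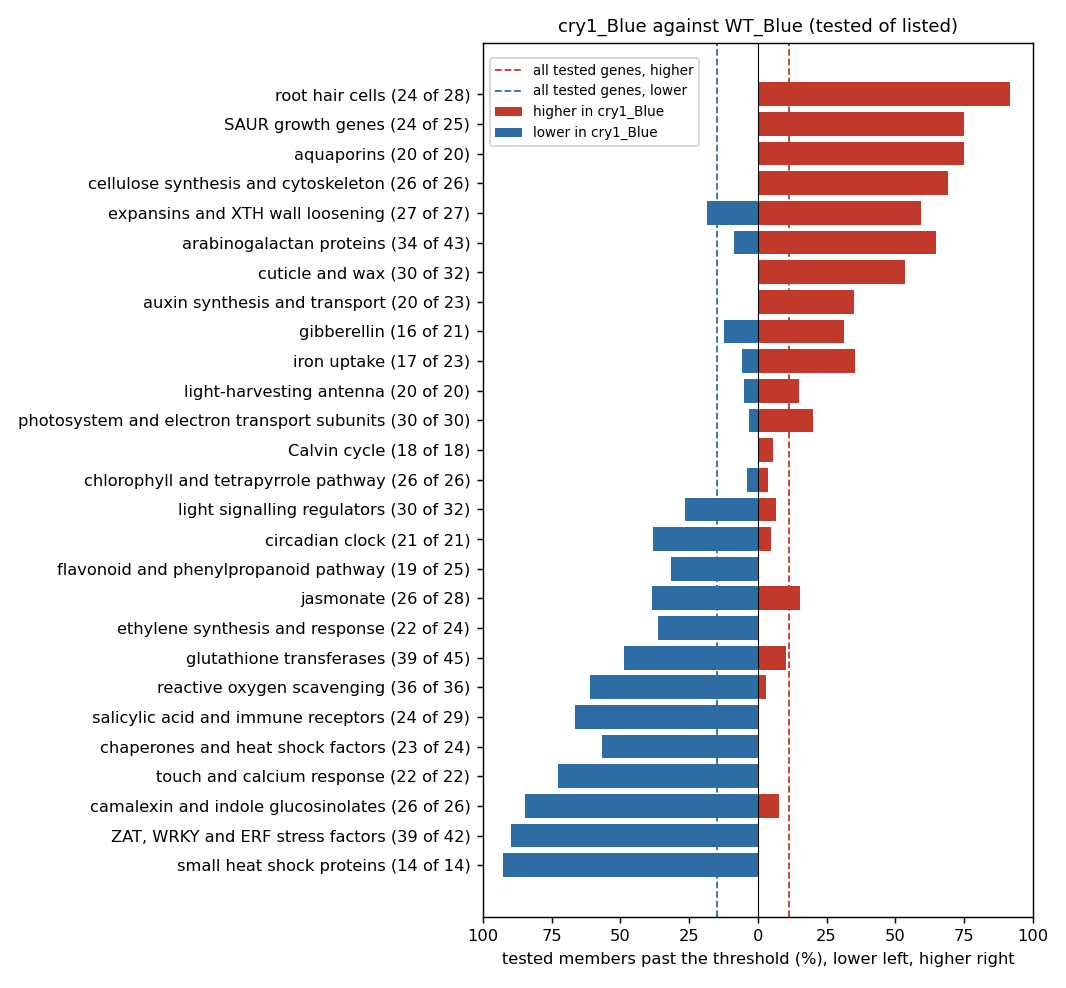
Of the members of each gene list that passed the filter, the share that was lower (bars to the left) and higher (bars to the right) in cry1_Blue than in WT_Blue at an adjusted p under 0.05, in percent, with dashed lines at the shares over all tested genes (14.9% lower and 11.4% higher) and the numbers tested and listed in brackets. Heat shock, stress factor and camalexin lists extend far to the left and root hair, SAUR and aquaporin lists far to the right.

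The 15 largest falls in cry1_Blue were of mixed annotation, with uncharacterized, small heat shock and plastid genes beside peroxidase, camalexin and danger peptide genes. PER4 (AT1G14540, chr1:4974021-4975705), a secreted class III peroxidase, was at 0.96, 0.93 and 0.46 TPM in cry1_Blue, against 112, 321 and 664 TPM in WT_Blue. All 3 cry1_Blue libraries were under 1 TPM, and the difference was -7.35 ± 1.00 (adjusted p 0.0002). PER5, its close relative, was at 0, 0.43 and 0.12 TPM in cry1_Blue and 37.4, 140.2 and 341 TPM in WT_Blue, a difference of -6.71 ± 1.16 (adjusted p 0.00098). As close relatives they may share reads, so the split between them is uncertain. Library 1 was the lowest of WT_Blue in both peroxidases and library 3 the highest. PXMT1, a methyltransferase gene, was at 1.57, 2.27 and 1.63 TPM in cry1_Blue, against 147, 387 and 182 TPM in WT_Blue (-6.28 ± 0.67, adjusted p 4.48e-05). AT1G53625, annotated as an uncharacterized protein, was at 1.48, 4.2 and 1.74 TPM in cry1_Blue and 73.0, 293 and 500.1 TPM in WT_Blue (-6.08 ± 0.75, adjusted p 0.000109). In each of these genes the WT_Blue libraries differed severalfold among themselves while the 3 cry1_Blue libraries stayed close to 0.

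DHAR2 (AT1G75270, chr1:28250075-28251469), a cytosolic dehydroascorbate reductase that recycles vitamin C, was nearly absent from cry1_Blue. It was at 0, 1.2 and 1.96 TPM there, against 256, 458 and 234 TPM in WT_Blue (-7.35 ± 0.46, adjusted p 5.51e-07). The next gene on the chromosome, AT1G75280 (chr1:28251626-28253686), annotated as an NmrA-like family gene, was at 0, 0.49 and 1.2 TPM in cry1_Blue and 89.9, 107 and 59.6 TPM in WT_Blue (-5.83 ± 0.30, adjusted p 1.56e-07). Both were low in cry1_Dark too. DHAR2 was at 2.25, 6.54 and 0.93 TPM in cry1_Dark and 171, 137 and 172 TPM in WT_Dark, and AT1G75280 at 1.02, 1.3 and 0.34 TPM in cry1_Dark and 67.7, 82.3 and 83.6 TPM in WT_Dark. AT4G08555 (chr4:5448049-5448638), an uncharacterized gene on the same chromosome as CRY1, was at 1.63, 2.57 and 1.41 TPM in cry1_Blue, against 113, 282 and 102 TPM in WT_Blue (-5.72 ± 0.36, adjusted p 5.51e-07).

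Transcription factors of the ZAT, WRKY and ERF families, which act early in wound, oxidative and pathogen responses, were almost uniformly lower in cry1_Blue. Of 42 listed, 39 passed the filter, 35 were lower and 0 higher, with a median difference of -2.46. ZAT12, a zinc finger factor of the high light and cold responses, was at 7.49, 7.07 and 3.91 TPM in cry1_Blue and 121, 338 and 128 TPM in WT_Blue (-4.65 ± 0.43, adjusted p 1.31e-05). WRKY25, a regulator of heat and salt tolerance, was at 6.44, 7.73 and 6.99 TPM in cry1_Blue, against 45.4, 62.2 and 32.2 TPM in WT_Blue (-2.52 ± 0.27, adjusted p 4.76e-05). DREB2A, which switches on drought and heat genes, was at 12.2, 12.9 and 12.6 TPM in cry1_Blue and 121, 153 and 49.5 TPM in WT_Blue (-2.86 ± 0.34, adjusted p 8.84e-05). None of the 3 had overlapping groups. ZAT8, a zinc finger gene, stood at 0.92, 1.13 and 1.32 TPM in cry1_Blue and 15, 55.0 and 21.0 TPM in WT_Blue (-3.67 ± 0.41, adjusted p 6.07e-05). WRKY22, which acts downstream of immune receptors, stood at 3.66, 5.88 and 4.14 TPM in cry1_Blue and 24.0, 43.5 and 33.0 TPM in WT_Blue (-2.61 ± 0.30, adjusted p 7.63e-05). ZAT5, AZF1, DREB26 and ERF4 passed the filter and were not called. In the dark 15 of the 42 were lower in cry1 and 2 higher, against 24.3% and 5.52% of all genes there. The summed level in the dark was 884, 604 and 1581 TPM in cry1_Dark, against 1899, 2077 and 1631 TPM in WT_Dark, so that cry1_Dark library 3 lay close to WT_Dark. Without that library 26 were lower and 0 higher, and without cry1_Dark library 2 or WT_Dark library 2 the lower count was 9 and 10. For 16 the genotype difference was itself more negative in blue light than in the dark (2.66% of all genes), a count of 5 without WT_Dark library 1 or 3 and 8 without WT_Dark library 2.

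The W-box (TTGACC or TTGACT on either strand), the element that WRKY factors bind, is shown in the promoter of ZAT11, one of the members whose fall was among the largest of the list at -3.88. ZAT11 was at 0.24, 0.43 and 0.68 TPM in cry1_Blue, against 8.98, 24.3 and 36.4 TPM in WT_Blue, with no overlap. Its 250 bases before the gene start (chr2:15706035-15706284, plus strand, RefSeq annotation of TAIR10.1) hold the element once, on the minus strand, with its first base 20 bases before the start. Capitals mark it.
ZAT11: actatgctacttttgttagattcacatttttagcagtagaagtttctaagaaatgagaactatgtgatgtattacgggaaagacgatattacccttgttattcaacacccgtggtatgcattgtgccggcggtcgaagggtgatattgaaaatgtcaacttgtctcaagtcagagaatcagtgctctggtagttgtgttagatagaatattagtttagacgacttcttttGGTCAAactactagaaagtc
Among the 39 listed factors with a promoter in the annotation, 21 (53.8%) held a W-box in these 250 bases. Of all 19271 promoters of tested genes 28.2% did, with 36.4% among those of lower genes and 26.9% among those of higher genes. The 21 listed holders include ZAT5, AZF1 and ERF4, which were not called, and the others were lower in cry1_Blue. These are counts of letters and do not show binding.

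**Figure D2:**
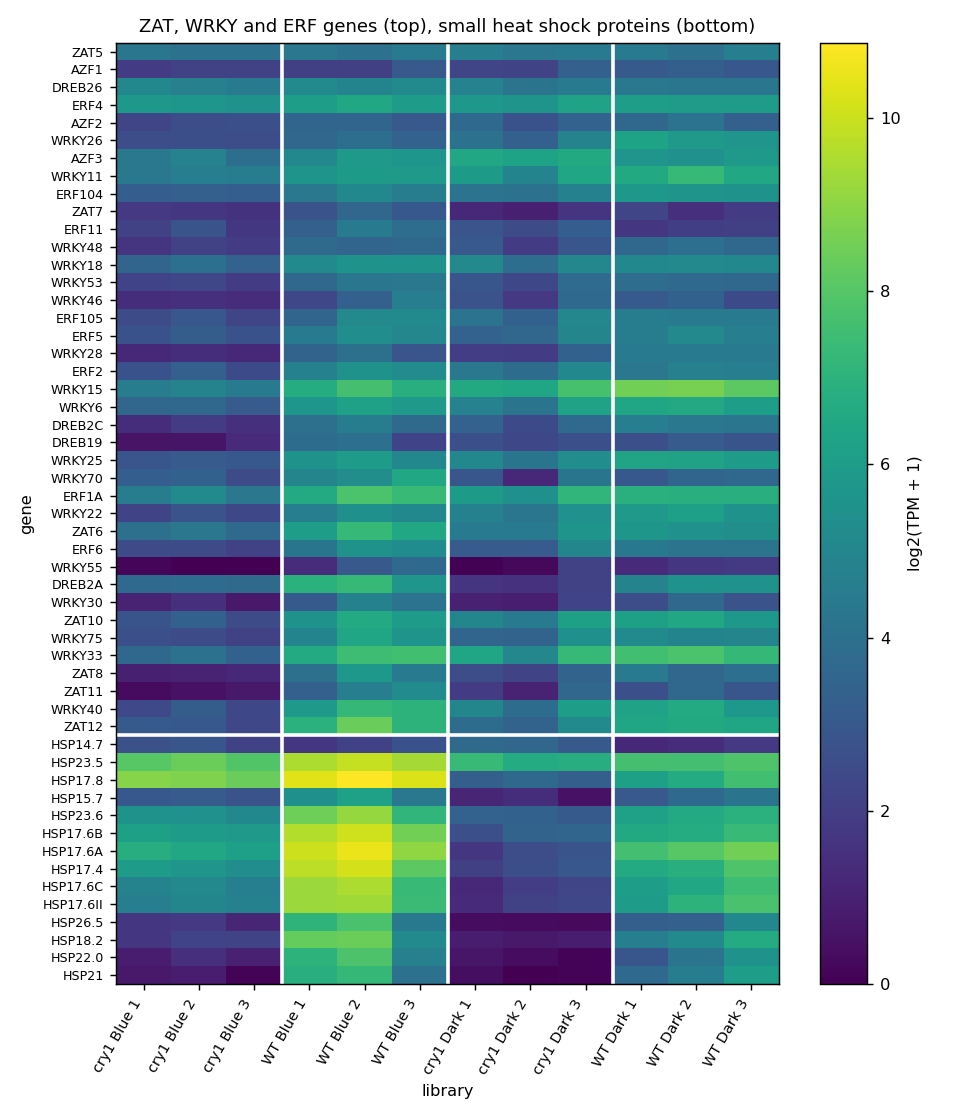
Heat map of log2(TPM + 1) for the ZAT, WRKY and ERF factors (39 genes) and the small heat shock proteins (14 genes) in the 12 libraries, in the order cry1_Blue, WT_Blue, cry1_Dark, WT_Dark. Bright colours are high. The WT_Blue columns are brighter than the cry1_Blue columns in nearly all rows, and in the small heat shock proteins the cry1_Dark columns are the darkest.

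Small heat shock proteins, ATP-independent chaperones that hold unfolded proteins, fell as a group. Of 14 listed, 13 were lower in cry1_Blue and 0 higher, with a median of -3.57. Their summed level was 1105, 1106 and 838 TPM in the cry1_Blue libraries, against 7102, 9482 and 3688 TPM in WT_Blue. WT_Blue library 3 was the lowest of its group and still lay above every cry1_Blue library. HSP17.6C was at 28.1, 33.3 and 24.9 TPM in cry1_Blue, against 596, 731 and 163 TPM in WT_Blue (-3.81 ± 0.48, adjusted p 0.00013). The cry1_Blue libraries stayed within a narrow band while those of WT_Blue spread widely. HSP21, the chloroplast member, was at 0.67, 0.81 and 0.08 TPM in cry1_Blue and 116, 148 and 16.0 TPM in WT_Blue (-5.49 ± 0.69, adjusted p 0.00012). HSP22.0, the endoplasmic reticulum member, was at 0.76, 1.81 and 0.97 TPM in cry1_Blue and 128, 230.0 and 25.3 TPM in WT_Blue (-5.43 ± 0.69, adjusted p 0.00013). The cytosolic class I members are near-identical in sequence, so reads may be shared among them. In the dark 13 of the 14 were lower as well, with a median of -3.76, where 24.3% of all tested genes were lower.

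The heat shock element, the repeat bound by heat shock factors, is shown in HSP17.6C. Of the lower small heat shock genes whose promoter holds the element, HSP17.6C had the largest fall. Its 250 bases before the gene start (chr1:19980049-19980298, plus strand, RefSeq TAIR10.1) carry GAANNTTCNNGAA once, with its first base 53 bases before the start. Capitals mark the element, which was searched as GAANNTTCNNGAA and TTCNNGAANNTTC.
HSP17.6C: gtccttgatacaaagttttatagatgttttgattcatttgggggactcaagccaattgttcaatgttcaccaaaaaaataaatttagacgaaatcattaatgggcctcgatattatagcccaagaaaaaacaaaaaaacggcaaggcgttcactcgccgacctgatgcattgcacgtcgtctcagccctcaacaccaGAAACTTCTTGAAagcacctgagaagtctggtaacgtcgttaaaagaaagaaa
Only 0.436% of the 19271 promoters held either form, 0.796% of those of lower genes and 0.33% of those of higher genes. Among the small heat shock proteins 2 of 14 did, and among the other chaperones and heat shock factors 3 of 23.

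Larger chaperones and heat shock factors followed in part. Of 24 listed, 13 were lower and 0 higher in cry1_Blue (median -1.09). In the dark 16 of the 24 were lower and 0 higher (median -1.36), against 24.3% and 5.52% of all genes there. HSP70B, a stress-inducible cytosolic HSP70, was at 3.83, 7.36 and 6.90 TPM in cry1_Blue, against 372, 338 and 39.1 TPM in WT_Blue. All cry1_Blue values lay below the lowest WT_Blue value, that of library 3, and the difference was -4.65 ± 0.69 (adjusted p 0.000336). HSFB1, a heat shock factor that acts as a repressor, was at 53.4, 85.7 and 67.6 TPM in cry1_Blue and 222, 335 and 287 TPM in WT_Blue (-2.02 ± 0.27, adjusted p 0.000171). Library 1, not library 3, was the lowest of WT_Blue for HSFB1. FES1A, an HSP70 cofactor, was at 208, 219 and 172 TPM in cry1_Blue and 497, 647 and 498 TPM in WT_Blue (-1.45 ± 0.18, adjusted p 0.000113). ROF2, a heat-induced FKBP-type immunophilin, differed by -2.14 ± 0.30 and HOP3, a cochaperone, by -1.77 ± 0.28. Of 17 endoplasmic reticulum chaperones and sensors, 6 were lower, led by BIP3 at 0.96, 2.64 and 2.03 TPM in cry1_Blue and 13.9, 12.4 and 38.2 TPM in WT_Blue (-2.83 ± 0.40, adjusted p 0.000272). BZIP60, the factor spliced by IRE1 in the unfolded protein response, was at 84.1, 73.1 and 73.3 TPM in cry1_Blue and 192, 296 and 213 TPM in WT_Blue (-1.57 ± 0.21, adjusted p 0.00016).

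Reactive oxygen scavenging genes were lower more often than not. Of 36 listed, 22 were lower and 1, the catalase gene CAT3, was higher, with a median of -0.73. CSD1, the cytosolic copper/zinc superoxide dismutase, was at 178, 129 and 97.1 TPM in cry1_Blue, against 347, 628 and 471 TPM in WT_Blue (-1.83 ± 0.27, adjusted p 0.000334). CAT3 was at 1921, 1677 and 2003 TPM in cry1_Blue and 1193, 743 and 723 TPM in WT_Blue (1.11 ± 0.20, adjusted p 0.00148). CAT3 was at high levels in both groups, and 13 members of the list were not called. Among all 45 glutathione transferases, which conjugate glutathione to toxic compounds, 19 were lower and 4 higher. GSTU25 was at 31.3, 19.7 and 31.2 TPM in cry1_Blue and 139.8, 141 and 75.9 TPM in WT_Blue (-2.05 ± 0.25, adjusted p 0.0001), and GSTU19 at 794, 752 and 804 TPM in cry1_Blue and 2774, 4458 and 1894 TPM in WT_Blue (-1.87 ± 0.28, adjusted p 0.000397). Tandem copies of this family may share reads. The count of 1 higher gene was 3 without WT_Blue library 1. In the dark 23 of the 36 scavenging genes were lower in cry1, against 24.3% of all genes there. That dark count was 15 without WT_Dark library 1.

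Genes of camalexin, the indolic antimicrobial of Arabidopsis, and of indole glucosinolates fell together. Of 26 listed, 22 were lower and 2 higher in cry1_Blue (median -1.57). CYP71A12, a P450 that converts indole acetaldoxime, was at 2.03, 2.67 and 2.37 TPM in cry1_Blue, against 113, 206 and 304 TPM in WT_Blue (-5.85 ± 0.78, adjusted p 0.000177). CYP81F2, which hydroxylates indole glucosinolates, was at 0.91, 3.71 and 2.09 TPM in cry1_Blue and 32.5, 61.0 and 68.2 TPM in WT_Blue (-4.11 ± 0.56, adjusted p 0.000199). IGMT2, the methyltransferase of the next step, was at 0.93, 3.46 and 1.12 TPM in cry1_Blue and 25.3, 56.8 and 50.2 TPM in WT_Blue (-4.02 ± 0.58, adjusted p 0.000284). These 3 genes lay below 4 TPM in every cry1_Blue library. The tryptophan branch that feeds the pathway was lower too. ASA1, an anthranilate synthase subunit, was at 23.1, 31.8 and 27.2 TPM in cry1_Blue, against 128, 163 and 138 TPM in WT_Blue (-2.35 ± 0.37, adjusted p 0.000511). CYP81F4 and MYB34, a regulator of indole glucosinolates, were the 2 higher members. CYP81F4 was at 135, 171 and 160.4 TPM in cry1_Blue and 53.7, 13.3 and 49.6 TPM in WT_Blue (2.19 ± 0.40, adjusted p 0.00135).

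Salicylic acid and immune receptor genes showed the same sign throughout their calls. Of 29 listed, 24 passed the filter, 16 were lower and 0 higher in cry1_Blue (median -1.28). PROPEP3, the precursor of a danger peptide, was at 1.88, 1.19 and 1.36 TPM in cry1_Blue, against 45.5, 165 and 349 TPM in WT_Blue (-5.82 ± 0.83, adjusted p 0.000277). RIN4, a membrane protein guarded by immune receptors, was at 14.2, 18.9 and 15.4 TPM in cry1_Blue and 44.2, 57.8 and 49.6 TPM in WT_Blue (-1.58 ± 0.20, adjusted p 0.000114). NIMIN1, a partner of the salicylic acid receptor NPR1, was listed at 0 in all 3 cry1_Blue libraries and at 5.22, 5.29 and 18.8 TPM in WT_Blue (adjusted p 0.000336). PROPEP3 and NIMIN1 varied widely among the WT_Blue libraries, with library 3 the highest in both. ICS1, which makes the salicylic acid precursor, was at 3.68, 6.18 and 4.89 TPM in cry1_Blue and 10.11, 12.9 and 34.3 TPM in WT_Blue (-1.59 ± 0.46, adjusted p 0.0202). It lost the call without cry1_Blue library 1 (0.0637), cry1_Blue library 3 (0.0539) or WT_Blue library 3 (0.0883).

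Touch and calcium genes, which respond within minutes to handling, were lower in 16 of 22 listed members and higher in 0 (median -1.2). CML37, a calmodulin-like calcium sensor, was at 0.38, 0.94 and 0.57 TPM in cry1_Blue, against 20.4, 76.4 and 60.1 TPM in WT_Blue (-4.85 ± 0.59, adjusted p 0.000102). CML40, another sensor of the family, was at 0.32, 0.48 and 0.50 TPM in cry1_Blue and 17.58, 62.9 and 70.5 TPM in WT_Blue (-4.94 ± 0.51, adjusted p 3.34e-05). Both sensors were below 1 TPM in every cry1_Blue library. ACA12, a plasma membrane calcium pump, was at 2.09, 7.69 and 3.96 TPM in cry1_Blue and 29.1, 38.8 and 45.0 TPM in WT_Blue (-2.90 ± 0.37, adjusted p 0.000136). In the dark 7 of the 22 were lower and 1 higher, near the shares over all genes there (24.3% and 5.52%). The summed level was 1665, 1430.1 and 2516 TPM in cry1_Dark, against 2373, 2027 and 1876 TPM in WT_Dark, with cry1_Dark library 3 above every WT_Dark library. The lower count was 11 without that library, and 3, 1, 2 and 3 without cry1_Dark library 1, cry1_Dark library 2, WT_Dark library 1 and WT_Dark library 2.

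CML9, at 62.6, 46.6 and 65.1 TPM in cry1_Blue and 94.4, 118 and 104 TPM in WT_Blue (-0.86 ± 0.23, adjusted p 0.0144), carries a CGCG box, the element bound by calmodulin-binding CAMTA factors. The 250 bases before its start (chr3:19269659-19269908, minus strand, RefSeq TAIR10.1) hold ACGCGT once, marked in capitals, with its first base 72 bases before the start. CML9 lost the call without cry1_Blue library 2 (adjusted p 0.0639) or WT_Blue library 2 (0.0613).
CML9: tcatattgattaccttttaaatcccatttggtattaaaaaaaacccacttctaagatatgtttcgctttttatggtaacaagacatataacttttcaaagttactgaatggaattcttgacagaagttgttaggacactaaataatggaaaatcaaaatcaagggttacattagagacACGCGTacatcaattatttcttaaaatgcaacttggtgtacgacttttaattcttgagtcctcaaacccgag
A CGCG box (ACGCGT or CCGCGT, either strand) stood in 3.66% of the 19271 promoters, in 6.68% of those of lower genes and in 2.36% of those of higher genes. It stood in 3 of the 22 touch and calcium genes (13.6%), CML9, TCH2 and CML23, of which TCH2 and CML23 were not called. Among the 39 ZAT, WRKY and ERF genes it stood in 5 (12.8%). These were ZAT7, ZAT8, ZAT12, WRKY25 and WRKY48, all lower in cry1_Blue.

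Ethylene, jasmonate and low-oxygen genes were partly lower. Of 24 ethylene genes 8 were lower and 0 higher, among them ACS6, an ACC synthase, at 10.06, 9.56 and 11.97 TPM in cry1_Blue and 28.2, 46.0 and 45.8 TPM in WT_Blue (-1.80 ± 0.32, adjusted p 0.00126). Of 28 jasmonate genes 10 were lower and 4 higher (38.5% and 15.4% of those tested, against 14.9% and 11.4% of all genes). The higher count fell to 2 without cry1_Blue library 2 or 3 or WT_Blue library 2. LOX4, a lipoxygenase of jasmonate synthesis, was at 0.75, 1.07 and 0.70 TPM in cry1_Blue, against 5.12, 14.6 and 20.6 TPM in WT_Blue (-2.80 ± 0.56, adjusted p 0.00262). The synthesis gene and a storage protein of the same hormone went opposite ways. VSP1, a vegetative storage protein induced by jasmonate, was at 9.99, 9.0 and 8.43 TPM in cry1_Blue and 0.84, 1.01 and 2.75 TPM in WT_Blue (2.07 ± 0.26, adjusted p 0.000114). Of 20 hypoxia and fermentation genes 6 were lower and 0 higher, among them ADH1, alcohol dehydrogenase, at 78.2, 128 and 53.8 TPM in cry1_Blue and 239, 489.9 and 305 TPM in WT_Blue (-2.0 ± 0.55, adjusted p 0.0159). ADH1 lost the call without cry1_Blue library 3 (adjusted p 0.0707) and without WT_Blue library 2 (0.0786). In the dark 10 of the 20 hypoxia and fermentation genes were lower and 0 higher, against 24.3% and 5.52% of all genes there. That lower count was 15 without cry1_Dark library 3 and 3 without cry1_Dark library 2 or WT_Dark library 2.

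Most of the light signalling regulators that were called were lower. Of 32 listed, 8 were lower and 2 higher in cry1_Blue (26.7% and 6.67% of those tested, against 14.9% and 11.4% of all genes). HY5, the bZIP factor that promotes greening, was at 73.3, 58.0 and 63.0 TPM in cry1_Blue, against 184, 197 and 175 TPM in WT_Blue (-1.51 ± 0.19, adjusted p 0.000134). In the dark HY5 was at 3.09, 4.06 and 2.3 TPM in cry1_Dark and 4.82, 3.25 and 3.98 TPM in WT_Dark, so the mutant in blue light stood far above both dark groups and below its wild type. The B-box gene BBX32 was at 13.1, 7.67 and 10.4 TPM in cry1_Blue and 36.1, 35.4 and 33.5 TPM in WT_Blue (-1.69 ± 0.23, adjusted p 0.000186). The 3 WT_Blue libraries lay close together in HY5 and BBX32. RUP1, a repressor of the UV-B receptor, was at 11.4, 8.28 and 11.2 TPM in cry1_Blue and 39.0, 27.7 and 30.8 TPM in WT_Blue (-1.57 ± 0.29, adjusted p 0.0014). GLK1, an activator of chloroplast genes, and PIL1, a shade marker, were the 2 higher members. GLK1 was at 252, 213 and 272 TPM in cry1_Blue, against 137, 56.0 and 109 TPM in WT_Blue (1.37 ± 0.28, adjusted p 0.0026). The count of 2 fell to 1 without cry1_Blue library 2 or 3 or WT_Blue library 2.

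BBX30, a microprotein gene of the B-box family that HY5 is known to bind, was at 9.86, 5.35 and 7.0 TPM in cry1_Blue and 16.5, 31.6 and 18.9 TPM in WT_Blue (-1.46 ± 0.26, adjusted p 0.0013). Its 250 bases before the start (chr4:8708591-8708840, plus strand, RefSeq TAIR10.1) hold 1 G-box, CACGTG, which bZIP and PIF factors recognise. Capitals mark it, and its first base lies 72 bases before the start.
BBX30: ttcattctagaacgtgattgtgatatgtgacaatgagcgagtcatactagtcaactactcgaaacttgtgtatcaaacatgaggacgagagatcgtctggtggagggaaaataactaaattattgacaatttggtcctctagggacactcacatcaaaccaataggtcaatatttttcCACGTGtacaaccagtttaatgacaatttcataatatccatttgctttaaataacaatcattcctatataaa
A G-box stood in 7.17% of all 19271 promoters, in 8.55% of those of lower genes and in 5.85% of those of higher genes.

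Of 16 photoreceptors and cryptochrome inhibitors, 2 were higher and 1, CRY1 itself, was lower. That was 12.5% and 6.25% of them, against 11.4% and 14.9% of all genes. PHYA, the far-red receptor, was at 69.4, 126 and 114 TPM in cry1_Blue, against 77.5, 37.0 and 57.9 TPM in WT_Blue (0.85 ± 0.26, adjusted p 0.0259). Its groups overlapped, and it lost the call without cry1_Blue library 2 (adjusted p 0.104), cry1_Blue library 3 (0.097) or WT_Blue library 2 (0.128). PHOT1, the blue light receptor of phototropism, was at 59.6, 92.2 and 96.6 TPM in cry1_Blue and 54.3, 24.8 and 40.9 TPM in WT_Blue (1.07 ± 0.27, adjusted p 0.00946). Of 21 clock genes 8 were lower and 1, CHE, was higher, which was not called without WT_Blue library 2. PRR9, a light-induced repressor of the clock, was at 10.2, 14.73 and 13.3 TPM in cry1_Blue and 60.2, 45.6 and 35.0 TPM in WT_Blue (-1.78 ± 0.35, adjusted p 0.0023). RVE2, a MYB-like factor, was at 9.85, 8.45 and 10.7 TPM in cry1_Blue and 44.0, 59.9 and 27.4 TPM in WT_Blue (-2.01 ± 0.30, adjusted p 0.000335). In the dark 16 of the 21 clock genes were lower in cry1, against 24.3% of all genes there.

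Of the photoprotection genes 2 were lower, 16.7% of them against 14.9% of all genes. ELIP2, a chlorophyll-binding protein made at the onset of greening, was at 2.72, 3.80 and 2.66 TPM in cry1_Blue, against 34.8, 42.0 and 33.8 TPM in WT_Blue (-3.23 ± 0.23, adjusted p 2.05e-06). ELIP1, its close relative, was at 27.7, 27.8 and 19.2 TPM in cry1_Blue and 68.4, 56.3 and 139 TPM in WT_Blue (-1.68 ± 0.31, adjusted p 0.00158). No other of the 12 listed photoprotection genes was called. Of 25 flavonoid and phenylpropanoid genes, 19 passed the filter, 6 were lower and 0 higher. PAL1, phenylalanine ammonia lyase, was at 67.9, 110.1 and 88.3 TPM in cry1_Blue and 243, 278 and 464 TPM in WT_Blue (-1.84 ± 0.38, adjusted p 0.00275). C4H, the next enzyme, was at 238, 269 and 213 TPM in cry1_Blue and 476, 587 and 715 TPM in WT_Blue (-1.29 ± 0.34, adjusted p 0.0123).

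Few nuclear photosynthesis genes were called lower, and the share called higher lay on both sides of the 11.4% over all genes. Higher members were 3 of 20 antenna genes, 6 of 30 photosystem and electron transport genes, 1 of 18 Calvin cycle genes and 1 of 26 tetrapyrrole genes. Lower members were 1 antenna gene, 1 photosystem gene, 0 Calvin cycle genes and 1 tetrapyrrole gene. The higher count of the antenna was 0 without WT_Blue library 2 or cry1_Blue library 3 and 1 without cry1_Blue library 1, and that of the photosystems was 3 without WT_Blue library 2. The Calvin cycle count was 4 after TMM-type or quantile scaling and ranged from 0 to 6 when 1 library was left out, 6 being without WT_Blue library 1. PORA, a protochlorophyllide reductase that light represses, was at 23.1, 25.3 and 17.57 TPM in cry1_Blue, against 12.1, 4.84 and 12.8 TPM in WT_Blue (1.16 ± 0.36, adjusted p 0.0302), and lost the call without cry1_Blue library 1 (0.0717), cry1_Blue library 2 (0.0914) or WT_Blue library 2 (0.149). HEMA2, a glutamyl-tRNA reductase of non-green tissue, was at 7.19, 11.8 and 8.40 TPM in cry1_Blue and 34, 68.9 and 48.3 TPM in WT_Blue (-2.31 ± 0.36, adjusted p 0.00049). PSAG, a photosystem I subunit, was at 458, 401 and 447 TPM in cry1_Blue and 321, 185 and 232 TPM in WT_Blue (0.86 ± 0.20, adjusted p 0.00568).

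**Figure D3:**
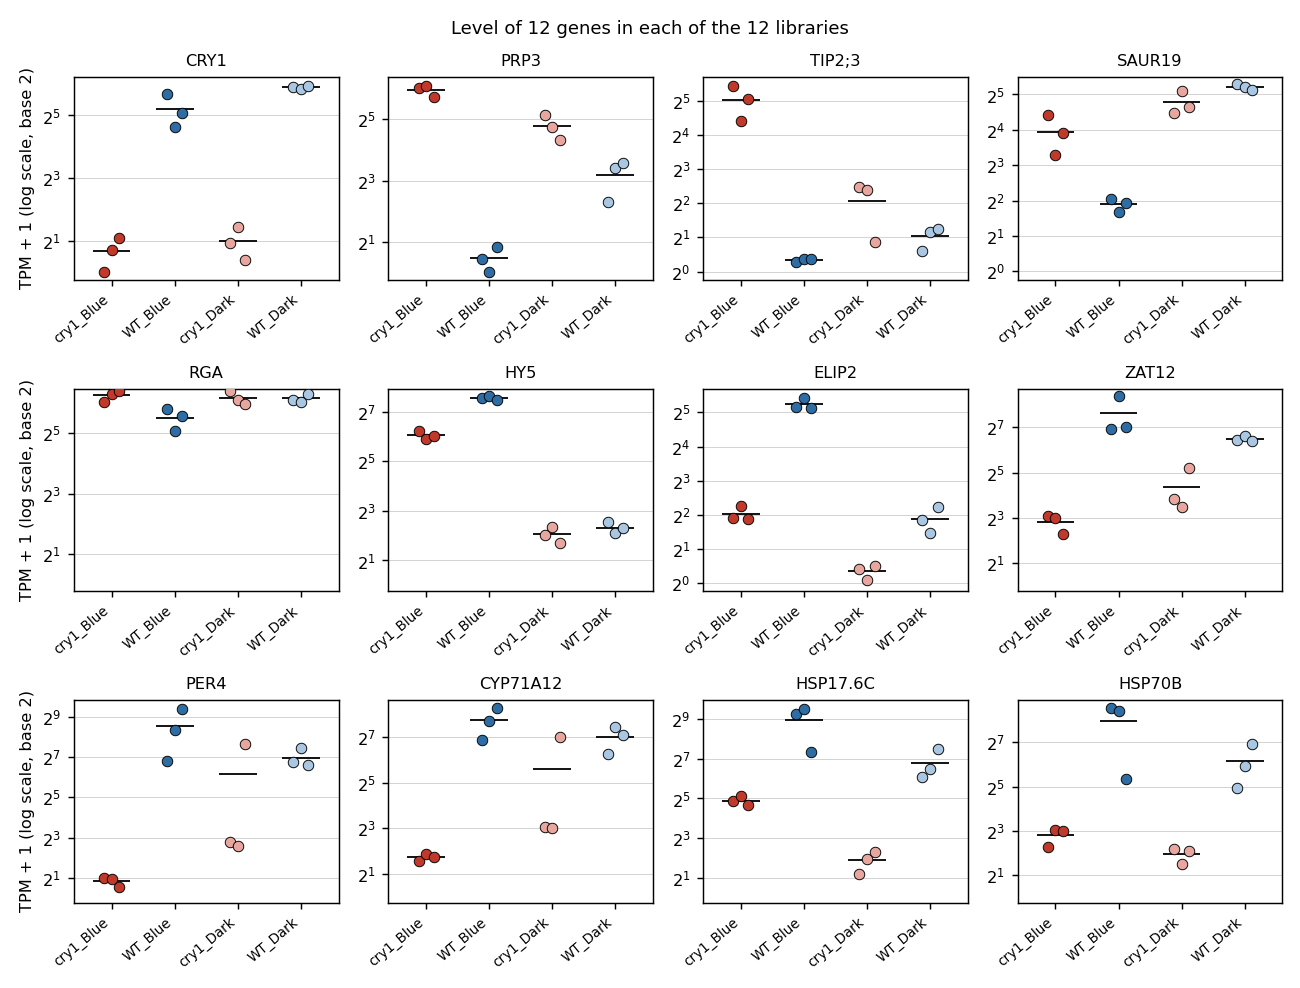
Level of 12 genes in each of the 12 libraries (points) on a log2 axis of TPM + 1, with horizontal bars at the arithmetic mean of TPM + 1 of each group. CRY1, HY5, ELIP2, ZAT12, PER4, CYP71A12, HSP17.6C and HSP70B are lower in all 3 cry1_Blue libraries than in any WT_Blue library, and PRP3, TIP2;3, SAUR19 and RGA are higher.

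The 15 largest rises included several root hair and cell wall genes. Of 28 listed root hair genes, 24 passed the filter, 22 were higher in cry1_Blue and 0 lower, with a median of 3.18. Their summed level was 581, 538 and 415 TPM in cry1_Blue, against 21.9, 11.9 and 35.1 TPM in WT_Blue. PRP3 (AT3G62680, chr3:23182722-23184042), which encodes a proline-rich root hair wall protein, reached 64.4, 66.4 and 52.2 TPM in cry1_Blue and 0.36, 0 and 0.77 TPM in WT_Blue (5.52 ± 0.33, adjusted p 4.19e-07). RHS13, an extensin-like root hair gene, was at 91.3, 75.2 and 60.2 TPM in cry1_Blue and 0.98, 0.18 and 4.50 TPM in WT_Blue (5.01 ± 0.44, adjusted p 1.05e-05). Library 2 was the lowest of WT_Blue for these genes, at or near 0. RSL4, the bHLH factor that drives hair growth, was at 4.36, 3.61 and 2.24 TPM in cry1_Blue, against 0.14, 0.05 and 0.24 TPM in WT_Blue (1.92 ± 0.23, adjusted p 0.000107). XTH12, a wall-remodelling enzyme, was at 12.2, 12.4 and 10.3 TPM in cry1_Blue and 0.17, 0.06 and 0.20 TPM in WT_Blue (3.46 ± 0.25, adjusted p 2.08e-06). RHD6, which specifies hair cells, and RHD2, the NADPH oxidase of hair tips, were the tested members not called. In the dark 16 of the 28 were higher in cry1 and 0 lower, against 5.52% and 24.3% of all genes there. The median in the dark was 1.32. PRP3 in the dark lay between the blue light groups, at 34.1, 25.9 and 19.1 TPM in cry1_Dark and 3.91, 9.56 and 10.9 TPM in WT_Dark.

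Whole seedlings were sampled, so a smaller number of root hair cells and less RNA per cell cannot be told apart in any group. The 7 root hair markers used as cell type markers summed to between 99.7 and 132.8 TPM in cry1_Blue and between 0.81 and 6.02 TPM in WT_Blue, with 6 of the 7 higher in cry1_Blue. Sums of other tissue markers lay closer together. The 4 endodermis markers summed to between 41.5 and 46.4 TPM in cry1_Blue, against 34.6 to 63.1 TPM in WT_Blue, ranges that overlap. The 5 root cap and meristem markers summed to between 2.35 and 4.82 TPM in cry1_Blue and between 1.2 and 2.3 TPM in WT_Blue, and 4 of the 5 were below the filter. The 4 xylem markers summed to between 100.4 and 108.8 TPM in cry1_Blue and between 58.9 and 70.2 TPM in WT_Blue, with 2 higher, while the sums of the 4 phloem and of the 5 guard cell markers overlapped between the groups. The 4 markers of green tissue summed to between 3377 and 4756 TPM in cry1_Blue and between 3050 and 4022 TPM in WT_Blue. The 4 seed markers were below the filter, although 1 cry1_Blue library reached a sum of 44.9 TPM against at most 0.65 TPM in WT_Blue. The share of root tissue in each harvest was not measured, and its part in the root hair result was not tested.

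**Figure D4:**
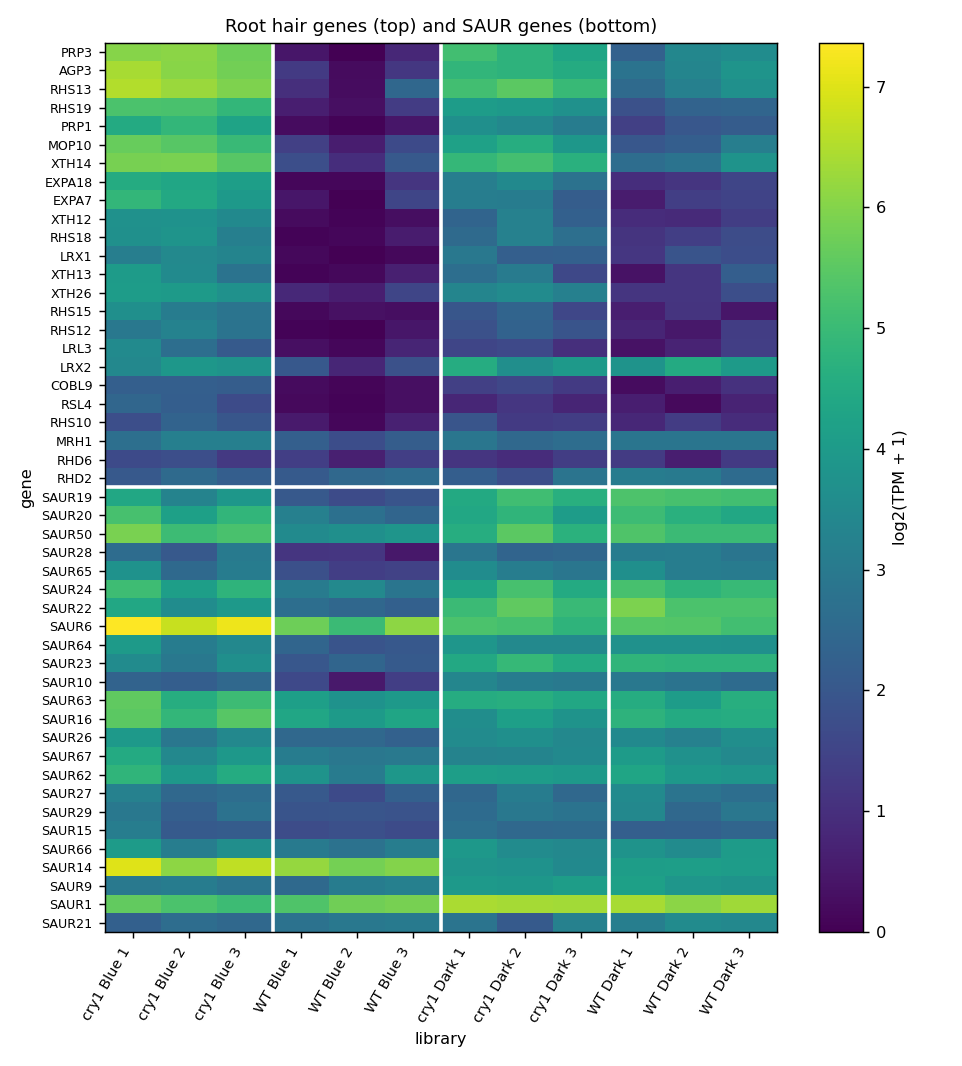
Heat map of log2(TPM + 1) for the root hair genes (24) and the SAUR genes (24) in the 12 libraries, in the order cry1_Blue, WT_Blue, cry1_Dark, WT_Dark. Bright colours are high. The WT_Blue columns are the darkest in the root hair block and in most SAUR rows, while SAUR6 and SAUR14 are brightest in cry1_Blue and SAUR1 is brightest in the dark.

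Lists of wall proteins held more higher than lower calls. Of 43 arabinogalactan proteins 34 passed the filter, 22 were higher and 3 lower (median 1.21). AGP3, also listed among the root hair genes, was at 83.9, 65.6 and 54.8 TPM in cry1_Blue, against 1.37, 0.17 and 1.29 TPM in WT_Blue (5.20 ± 0.30, adjusted p 4.19e-07). Of 206 extensins and proline-rich proteins 147 passed, 59 were higher and 12 lower. HRGP1, a hydroxyproline-rich glycoprotein, was at 41.0, 53.5 and 43.0 TPM in cry1_Blue and 0.27, 0.03 and 0.37 TPM in WT_Blue (5.26 ± 0.38, adjusted p 2.08e-06). Both AGP3 and HRGP1 were below 2 TPM in every WT_Blue library. EXT6, an extensin, was at 28.0, 46.1 and 35.2 TPM in cry1_Blue and 0.16, 0.03 and 0.26 TPM in WT_Blue (5.0 ± 0.36, adjusted p 2.08e-06). Extensins are repetitive, and reads may be shared among them. Class III peroxidases, the family of PER4, went both ways: of 76, 24 were higher and 10 lower, the lower count being 6 without cry1_Blue library 3. AT4G15390, annotated as an acyltransferase family gene, was at 75.0, 73.8 and 59.6 TPM in cry1_Blue, against 1.82, 0.81 and 2.31 TPM in WT_Blue (4.77 ± 0.30, adjusted p 6.1e-07).

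Expansins and xyloglucan endotransglucosylases (XTHs), which loosen walls for growth, were higher in 16 of 27 and lower in 5. EXPA8 was at 66.1, 39.5 and 65.5 TPM in cry1_Blue, against 20.2, 8.47 and 14.2 TPM in WT_Blue (1.96 ± 0.26, adjusted p 0.000182). EXPB3, a beta-expansin, was at 33.9, 40.8 and 33.0 TPM in cry1_Blue and 5.25, 2.67 and 8.40 TPM in WT_Blue (2.61 ± 0.30, adjusted p 7.37e-05). The 5 lower members were all XTHs: XTH18, XTH22, XTH23, XTH24 and XTH30. XTH23 was at 17.41, 18.6 and 15.9 TPM in cry1_Blue and 75.4, 232 and 237 TPM in WT_Blue (-3.15 ± 0.45, adjusted p 0.00026), and XTH22 is the touch gene TCH4.

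SAUR genes, small auxin-induced growth proteins, were higher in 18 of 25 listed members and lower in 0 (median 1.08). SAUR19, which promotes cell expansion, was at 20.4, 8.72 and 14.0 TPM in cry1_Blue, against 3.13, 2.21 and 2.80 TPM in WT_Blue (1.98 ± 0.26, adjusted p 0.00016). SAUR50 was at 58.1, 32.2 and 37.0 TPM in cry1_Blue and 10.4, 11.7 and 13.2 TPM in WT_Blue (1.73 ± 0.26, adjusted p 0.000379). In the dark SAUR19 was at 21.4, 33.6 and 24.1 TPM in cry1_Dark and 38.7, 36.3 and 34.1 TPM in WT_Dark, so both blue light groups stood below both dark groups. SAUR19 to SAUR24 are near-identical copies that may share reads, and their individual values are uncertain. The genotype difference was larger in blue light than in the dark for 13 of the 25 members, against 7.45% of all genes.

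Other auxin genes were called in smaller numbers. Of 23 synthesis and transport genes, 7 were higher and 0 lower, but the higher count was 2 without cry1_Blue library 2 or without WT_Blue library 2, 3 without cry1_Blue library 3 and 4 without WT_Blue library 3. LAX2, an auxin influx carrier, was at 18.17, 19.2 and 22.9 TPM in cry1_Blue, against 4.29, 1.25 and 5.89 TPM in WT_Blue (2.27 ± 0.32, adjusted p 0.00023). Of 29 Aux/IAA and GH3 response genes 4 were higher and 4 lower. These were 16% and 16% of those tested, near the 11.4% and 14.9% over all genes. The lower count was 2 without WT_Blue library 1. IAA19, a growth-linked Aux/IAA repressor, was at 36.6, 32.6 and 39.1 TPM in cry1_Blue and 16.0, 10.3 and 21.6 TPM in WT_Blue (1.2 ± 0.22, adjusted p 0.00165). GH3.2, an auxin-conjugating enzyme, was at 5.19, 4.97 and 5.84 TPM in cry1_Blue and 54.9, 32.1 and 31.0 TPM in WT_Blue (-2.62 ± 0.48, adjusted p 0.00148).

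All 5 DELLA genes, repressors of gibberellin-driven growth, were higher in cry1_Blue. GAI was at 33.1, 38.1 and 36.4 TPM in cry1_Blue, against 18.6, 10.8 and 15.66 TPM in WT_Blue (1.23 ± 0.20, adjusted p 0.000713). RGA, the other major repressor of the family, was at 64.6, 77.9 and 84.5 TPM in cry1_Blue and 54.9, 32.8 and 46.7 TPM in WT_Blue (0.77 ± 0.20, adjusted p 0.0115), and lost the call without cry1_Blue library 3 (0.0553) or WT_Blue library 2 (0.0565). RGL1, RGL2 and RGL3 differed by 0.90, 1.07 and 1.11. Of 21 gibberellin genes these were the 5 higher, and 2 were lower. GA2OX6, which inactivates gibberellins, was at 13.2, 12.3 and 12.4 TPM in cry1_Blue and 52.6, 84.5 and 64.5 TPM in WT_Blue (-2.29 ± 0.26, adjusted p 7.08e-05). The lower count was 1 when any library other than WT_Blue library 2 was left out. Of 19 PIF and growth HLH factors 4 were higher and 5 lower (21.05% and 26.3%, against 11.4% and 14.9% of all genes). The lower count was 3 without cry1_Blue library 3. PIF4, a bHLH promoter of elongation, was at 38.2, 38.3 and 43.1 TPM in cry1_Blue, against 27.9, 10.3 and 19.6 TPM in WT_Blue (1.11 ± 0.27, adjusted p 0.00749), and PIF7 at 10.9, 10.6 and 10.3 TPM in cry1_Blue and 33.9, 21.1 and 21.4 TPM in WT_Blue (-1.16 ± 0.27, adjusted p 0.00637). PIF4 and PIF7, which act together in shade, thus differed in sign here. PRE1, an atypical HLH that promotes cell elongation, was at 5.30, 3.36 and 6.20 TPM in cry1_Blue and 0.91, 0.42 and 1.47 TPM in WT_Blue (1.63 ± 0.32, adjusted p 0.00235).

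Aquaporins, the water channels of plasma membrane and vacuole, were higher in 15 of 20 listed members and lower in 0 (median 1.05). TIP2;3 (AT5G47450, chr5:19248249-19249622), a tonoplast channel of roots, was at 42.0, 20.1 and 31.9 TPM in cry1_Blue, against 0.22, 0.28 and 0.29 TPM in WT_Blue (4.62 ± 0.38, adjusted p 5.51e-06). PIP2;7, an abundant plasma membrane channel, was at 1065, 855 and 986 TPM in cry1_Blue and 501, 402 and 459.6 TPM in WT_Blue (1.09 ± 0.16, adjusted p 0.000323). The root channel was near 0 in the wild type, the abundant one high in both. TIP4;1, another tonoplast channel, was at 8.65, 8.03 and 8.36 TPM in cry1_Blue and 1.35, 0.61 and 1.24 TPM in WT_Blue (2.2 ± 0.27, adjusted p 0.000103). In the dark 2 of the 20 were higher in cry1 and 3 lower, against 5.52% and 24.3% of all genes there. The genotype difference was larger in blue light for 13, against 7.45% of all genes, a count of 8 without WT_Dark library 3. Without cry1_Dark library 1 or 2 or WT_Dark library 1 or 2 none was higher in the dark by limma, and 1 was lower without WT_Dark library 1. Without cry1_Dark library 3, 3 were higher there and 3 lower.

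Genes of cellulose synthesis and the cytoskeleton were higher in 18 of 26 and lower in 0, a count of 9 without cry1_Blue library 3 or without WT_Blue library 2. TUB6, a beta-tubulin, was at 211, 245 and 250.4 TPM in cry1_Blue, against 136, 72.0 and 126 TPM in WT_Blue (1.12 ± 0.20, adjusted p 0.00139). COB, an anchored protein that orients cellulose, was at 166, 154 and 159.5 TPM in cry1_Blue and 97.2, 51.4 and 77.9 TPM in WT_Blue (1.12 ± 0.21, adjusted p 0.00168). ACT2, often taken as a constant gene, was at 539, 505 and 578 TPM in cry1_Blue and 416, 303 and 372 TPM in WT_Blue (0.58 ± 0.16, adjusted p 0.0143), and lost the call without cry1_Blue library 3 (0.0633) or WT_Blue library 2 (0.065). Cuticle and wax genes were higher in 16 of 32 listed and lower in 0, with 10 higher without cry1_Blue library 3 and 8 without WT_Blue library 2. CER1, which makes wax alkanes, was at 14.5, 12.3 and 16.2 TPM in cry1_Blue, against 4.45, 1.87 and 3.01 TPM in WT_Blue (1.94 ± 0.26, adjusted p 0.000172). Of 29 cell cycle genes 9 were higher and 2 lower (32.1% and 7.14% of those tested, against 11.4% and 14.9% of all genes). The higher count was 4 without WT_Blue library 2. The lower count was 0 without any cry1_Blue library or without WT_Blue library 1. CYCD3;1, a D-type cyclin, was at 19.4, 19.3 and 18.0 TPM in cry1_Blue and 10.5, 7.22 and 11.1 TPM in WT_Blue (0.93 ± 0.19, adjusted p 0.00314).

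Nutrient genes were split. Of 23 iron uptake genes 6 were higher and 1 lower. NAS1, which makes the iron chelator nicotianamine, was at 7.45, 10.2 and 12.6 TPM in cry1_Blue, against 1.96, 0.85 and 1.61 TPM in WT_Blue (2.17 ± 0.28, adjusted p 0.000151). IRT1, the root iron transporter, was at 2.41, 2.52 and 3.01 TPM in cry1_Blue and was listed at 0 in all 3 WT_Blue libraries (adjusted p 0.000101). Both were low in absolute level. FIT, the bHLH factor that controls IRT1, was at 4.34, 2.43 and 3.23 TPM in cry1_Blue and 0.91, 0.87 and 1.04 TPM in WT_Blue (1.14 ± 0.26, adjusted p 0.00558). Of 21 phosphate starvation genes 7 were lower and 1 higher. SPX1, a phosphate sensor, was at 18.5, 18.9 and 16.4 TPM in cry1_Blue and 124, 158 and 73.6 TPM in WT_Blue (-2.60 ± 0.28, adjusted p 4.83e-05), while the transporter PHT1;1 was at 72.1, 85.8 and 74.2 TPM in cry1_Blue and 31.8, 8.77 and 31.6 TPM in WT_Blue (1.84 ± 0.44, adjusted p 0.00753).

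Sulphur assimilation and aliphatic glucosinolate genes went both ways. Of 34 listed genes 8 were higher and 11 lower. All 3 APS reductases, which reduce activated sulphate, were among the lower members. APR3 was at 59.6, 79.5 and 61.4 TPM in cry1_Blue, against 321, 320.1 and 174 TPM in WT_Blue (-1.97 ± 0.24, adjusted p 0.000103). APK2, an APS kinase, was at 62.6, 85.3 and 65.6 TPM in cry1_Blue and 269, 435 and 468 TPM in WT_Blue (-2.41 ± 0.37, adjusted p 0.000439). The higher members held aliphatic glucosinolate genes, among them CYP79F1, which starts the pathway, at 5.92, 12.4 and 8.78 TPM in cry1_Blue and 3.53, 2.27 and 4.46 TPM in WT_Blue (1.16 ± 0.31, adjusted p 0.0127). CYP79F1 lost the call without cry1_Blue library 2 (0.06) or WT_Blue library 2 (0.0648). SULTR1;1, the root sulphate transporter, was at 2.87, 3.72 and 2.56 TPM in cry1_Blue, against 0.09, 0 and 0.17 TPM in WT_Blue (1.89 ± 0.20, adjusted p 4.12e-05).

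Cold and abscisic acid genes also went in both directions. Of 12 cold genes 8 passed the filter, 5 were higher and 1, ZAT12, was lower. RD29A, a dehydration and cold marker, was at 93.9, 146 and 238 TPM in cry1_Blue, against 37.3, 9.36 and 31.6 TPM in WT_Blue (2.67 ± 0.47, adjusted p 0.00106). COR15A, a chloroplast cryoprotectant, was at 61.5, 24.5 and 78.8 TPM in cry1_Blue and 10.12, 2.42 and 13.2 TPM in WT_Blue (2.63 ± 0.48, adjusted p 0.00149). Of 19 abscisic acid genes 5 were higher and 6 lower. ABI1, a phosphatase that damps the hormone's signal, was at 61.1, 79.6 and 69.0 TPM in cry1_Blue and 138, 120.3 and 109.7 TPM in WT_Blue (-0.81 ± 0.16, adjusted p 0.00254). Without WT_Blue library 2 only 2 were higher and 2 lower, without cry1_Blue library 3 only 1 was higher, without WT_Blue library 3 only 2 were higher, and without cry1_Blue library 1 only 3 were lower.

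Starvation genes, induced in prolonged darkness, were lower in 6 of 21 and higher in 0. DIN2, a beta-glucosidase, was at 1.63, 2.1 and 2.22 TPM in cry1_Blue, against 58.5, 42.1 and 9.10 TPM in WT_Blue (-3.32 ± 0.60, adjusted p 0.00131). In the dark 16 of the 21 were lower in cry1, against 24.3% of all genes there. That count was 19 without cry1_Dark library 3 and 13 without WT_Dark library 1. Nitrate genes were called in 4 higher and 2 lower of 19. These were 22.2% and 11.1% of those tested, against 11.4% and 14.9% of all genes. GDH2, a glutamate dehydrogenase subunit that starvation induces, was at 137, 136 and 118 TPM in cry1_Blue and 618, 874 and 469.6 TPM in WT_Blue (-2.28 ± 0.31, adjusted p 0.000211). NRT2.1, the high-affinity nitrate transporter, was at 2.50, 1.52 and 1.3 TPM in cry1_Blue and was listed at 0 in all 3 WT_Blue libraries (adjusted p 0.000277).

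Most plastid genes that passed the filter were higher in cry1_Blue. Of 133 plastid genes 68 passed the filter, 59 were higher in cry1_Blue and 1 lower, with a median of 2.79. Their summed level was 15844, 21910.3 and 25968 TPM in cry1_Blue, against 12582, 7864 and 4664 TPM in WT_Blue. In the dark 60 of the 133 were higher and 0 lower, against 5.52% and 24.3% of all genes there. The median was 2.69, so the difference was of like size without blue light. ATCG00740 rose furthest and was at 3.93, 115 and 89.1 TPM in cry1_Blue, against 1.59, 0 and 0 TPM in WT_Blue (4.76 ± 0.89, adjusted p 0.00168). In this gene cry1_Blue library 1 was far below the other cry1_Blue libraries and close to WT_Blue library 1. ATCG00630 was listed at 0 in all 3 cry1_Blue libraries and at 41.1, 23.55 and 100.1 TPM in WT_Blue (adjusted p 0.0145, 0.0503 without WT_Blue library 3). Of 152 mitochondrial genes 40 passed, 21 were higher and 0 lower, with 9 higher without cry1_Blue library 3 and 12 without WT_Blue library 3.

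Ribosomal and proteasome genes were rarely called in blue light. Of 252 cytosolic ribosomal protein genes 10 were higher and 4 lower in cry1_Blue, with 18 higher after TMM-type scaling, 39 after quantile normalization, 25 without WT_Blue library 3, 5 or 6 without cry1_Blue library 2 or 3 and 4 without WT_Blue library 2. In the dark 131 of the 252 ribosomal genes were higher in cry1 and 7 lower, against 5.52% and 24.3% of all genes there. The dark higher count was 92 without WT_Dark library 2 and 136 without cry1_Dark library 3. For 40 the genotype difference was lower in blue light than in the dark, a count of 4 without WT_Dark library 2. Of 39 proteasome genes 0 were higher and 3 lower in blue light. Of 17 housekeeping genes 4 were higher and 2 lower, which is 23.53% and 11.8% of them against 11.4% and 14.9% of all genes. The higher count was 1 without WT_Blue library 2 or cry1_Blue library 3 and 2 without cry1_Blue library 2, and the lower count was 1 without any of these. UBC21, a common normaliser, was at 48.0, 43.0 and 45.0 TPM in cry1_Blue, against 77.4, 88.6 and 85.0 TPM in WT_Blue (-0.87 ± 0.15, adjusted p 0.00104).

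The same contrast in the dark gave another balance of directions. In cry1_Dark against WT_Dark, 1069 of the 19381 genes were higher (5.52%) and 4717 lower (24.3%), with a median of -0.30. Of the genes lower in blue light, 1570 were lower in the dark too, 54.3% of the blue light list and 33.3% of the dark list. Of the genes higher in blue light, 327 were higher in the dark, 14.9% of the blue light list and 30.6% of the dark list, and 1747 (79.4%) were not called there. Across the 19381 genes the 2 sets of differences, which share no library, correlated at r = 0.518 (rho 0.478). SAUR genes had a median of 1.08 in blue light and -0.18 in the dark, and small heat shock proteins -3.57 in blue light and -3.76 in the dark. The dark counts depend on scaling: 2439 genes were higher and 2570 lower after TMM-type scaling, and 2659 and 2527 after quantile normalization. Without cry1_Dark library 2, 668 genes were higher and 2181 lower, without WT_Dark library 1 these counts were 690.0 and 2356, and without WT_Dark library 2 they were 618 and 2563. Without cry1_Dark library 3 they were 1116 and 4552.

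**Figure D5:**
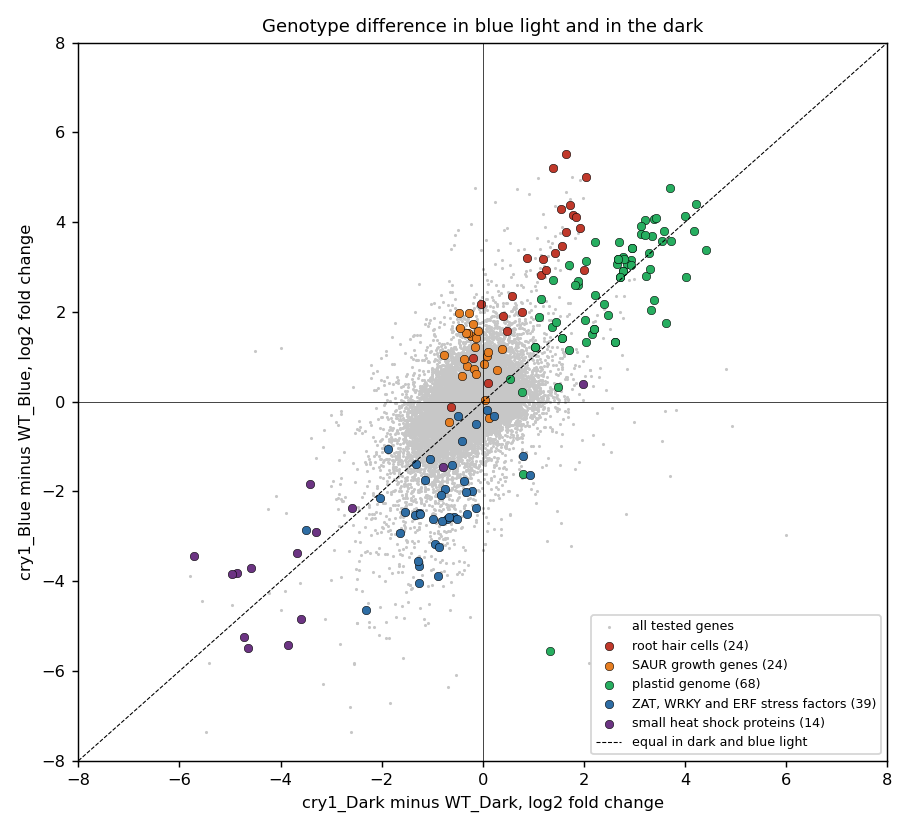
Difference between cry1 and WT in blue light (vertical axis, cry1_Blue minus WT_Blue, log2(TPM + 1)) against that in the dark (horizontal axis, cry1_Dark minus WT_Dark) for the tested genes in grey and 5 gene lists in colour. Small heat shock genes and most plastid genes scatter around the diagonal, where both differences are equal, and nearly all root hair and SAUR genes lie above it.

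Where the genotype difference in blue light was tested against that in the dark, 1443 genes (7.45%) were higher in blue light and 516 (2.66%) lower. The median difference of differences over all genes was 0.26. The balance depended on scaling, with 1141 higher and 1026 lower after TMM-type scaling and 1364 and 955 after quantile normalization. Without scaling, the counts were 644 and 166 when cry1_Blue library 3 was left out and 721 and 215 without WT_Blue library 2. Without WT_Blue library 3 they were 934 and 265. Without cry1_Blue library 2, 926 were higher. Of the dark libraries, 719 and 237 were called without WT_Dark library 1, 810.0 and 211 without library 2 and 951 and 317 without library 3, and 898 were higher without cry1_Dark library 2. AAP2, an amino acid permease of the phloem, was at 55.8, 64.1 and 60.6 TPM in cry1_Blue and 28.3, 21.1 and 26.49 TPM in WT_Blue. Its dark values were 48.9, 32.2 and 43.1 TPM in cry1_Dark and 93.4, 86.2 and 87.8 TPM in WT_Dark, and the difference of differences was 2.33 (adjusted p 0.000983). DR4, annotated as drought-repressed 4, was at 429.5, 391 and 419 TPM in cry1_Blue and 41.1, 23.7 and 42.1 TPM in WT_Blue. In the dark it was at 201, 199 and 158 TPM in cry1_Dark and 116, 117 and 153 TPM in WT_Dark (3.01, adjusted p 0.00095). Among genes that moved the other way, CAF1a, a deadenylase subunit gene of the stress response, was at 16.0, 21.2 and 13.8 TPM in cry1_Blue and 41.9, 68.5 and 56.5 TPM in WT_Blue. It was at 41.9, 37.9 and 53.0 TPM in cry1_Dark and 21.6, 22.7 and 28.4 TPM in WT_Dark (-2.48, adjusted p 0.00162). LURP1, a gene of defence against oomycetes, was at 0.04, 0.28 and 0.25 TPM in cry1_Blue and 5.81, 10.3 and 14.6 TPM in WT_Blue. Its dark levels were 1.11, 0.07 and 1.2 TPM in cry1_Dark and 0.16, 0.60 and 1.4 TPM in WT_Dark (-3.21, adjusted p 0.00329).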

How the data were processed

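Total RNA came from whole seedlings (RNAiso Plus) and libraries were prepared with an Illumina TruSeq kit (per the labels' protocols) and sequenced on an Illumina HiSeq4000, per the design text. The deposited values are TPM, 1 table per library with 32833 genes, a unit read from the values, since libraries sum to between 980965 and 996431. The submitters' processing notes name Trimmomatic 0.36, HISAT2 2.2.1.0, Cufflinks, TopHat, Bowtie2, DESeq 1.18.0 and the build TAIR10, with no roles or order. The sources used here do not give the strand setting or how shared reads were counted. Depth cannot be read from TPM, and counting intervals and detection limits are therefore left out.

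Genes with at least 1 TPM in 3 or more of the 6 blue light libraries were kept. log2(TPM + 1) was fitted in limma 3.58.1 (R 4.3.3, tables made with Python 3.11.15) with trend, on all 12 libraries with 1 mean for each of the 4 groups, which share 1 estimate of the spread. The contrasts were cry1_Blue minus WT_Blue, cry1_Dark minus WT_Dark and the difference of the 2. P-values were Benjamini-Hochberg adjusted over the 19381 genes and called under 0.05. The fit was tested on simulated data with known changes. A count model had been foreseen only for counts, and the values are not counts.

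Symbols came from the RefSeq annotation of TAIR10.1, which holds 32548 of the 32833 identifiers, and plastid and mitochondrial identifiers were kept as such. Of the listed symbols 12 had no match. Promoters are the 250 bases before the annotated gene start. Named genes are the 15 largest called differences in each direction with at least 5 TPM in the higher group and no overlap, from each list its 5 members of lowest adjusted p at most and those needed to account for it, CRY1 and CRY2, and 8 genes in each direction with the smallest interaction p among those called in both that test and blue light. Not all of them are described. The members named to account for a list (ZAT11, CAT3, CYP81F4, ICS1, CML9, GLK1, RSL4, PIF4, RGA and CYP79F1) were picked after their values were seen. The members, lists and rules were chosen with earlier results of these data known. Alternatives were TMM-type and quantile scaling, a pseudocount of 0.1, no filter, a mean of at least 5 TPM, the 6 blue light libraries alone, limma without trend, array weights, the replicate number as a block, and leaving out each blue light library. Leaving out each dark library, for the dark contrast and the interaction, was added after seeing the data.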

Additional observations from a re-analysis of the deposited data

Results flagged for a closer look

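Genes were taken up here where the difference between the genotypes in blue light itself differed from that in the dark, tested as the interaction term in limma at an adjusted p under 0.05. Over all genes 1443 had a more positive difference in blue light and 516 a more negative one. After TMM-type scaling these counts were 1141 and 1026. The values below are the blue light difference minus the dark difference on the log2(TPM + 1) scale. Groups of 3 libraries were too small for a test of single outlying samples.

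Positive values included genes of the cell wall. PRP3 had 3.88, HRGP1 3.81, AGP3 3.82, RHS13 2.97 and EXT6 3.23. The extensin-like genes AT3G54580, AT3G28550 and AT5G06630 had 3.88, 4.06 and 2.79, and the hydroxyproline-rich gene AT5G19800 had 3.41. The peroxidase genes AT1G05250 and AT1G34510 had 3.01 and 2.55. The acyltransferase gene AT4G15390 had 4.93, the CAP family gene AT5G57625 3.04 and the tonoplast aquaporin TIP2;3 3.71. DR4 had 3.01, the amino acid permease AAP2 2.33, the cysteine protease gene AT4G11320 4.04, MLP328 4.06 and the protein phosphatase gene AT3G05640 2.99.

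Negative values were of varied annotation. The peroxidase gene PER4 had -4.75, the dirigent-like gene DIR5 -4.96, LURP1 -3.21, the stress-associated SAP10 -2.12 and CAF1a -2.48. The uncharacterized genes AT3G21305, AT1G53625, AT4G08555 and AT3G10930 had -5.67, -5.55, -4.14 and -2.45. AT2G28400, of a family of unknown function, had -2.49. AT2G08680, annotated as other RNA, had -2.48 and was listed at 0 in all libraries but those of WT_Blue, and AT3G21305 at 0 in all 3 of cry1_Blue, so their values depend on the added 1 TPM.

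Of the dark libraries, cry1_Dark library 3 stood high in several of these genes. PER4 was at 5.75, 4.94 and 198 TPM in cry1_Dark and 107, 172 and 95.8 TPM in WT_Dark, AT3G21305 at 9.88, 5.59 and 83.6 TPM in cry1_Dark and 26.04 to 31.8 TPM in WT_Dark, and AT1G53625 at 27.6, 32.4 and 263 TPM in cry1_Dark and 90.9, 94.8 and 85.0 TPM in WT_Dark. Without that library the values were -3.09 for PER4 (limma adjusted p 0.0196), -4.56 for AT3G21305 (0.0109) and -4.52 for AT1G53625 (0.0059). Of the 30 genes, 29 kept the call without any 1 dark library. PER4, at an adjusted p of 0.0492, lost it without WT_Dark library 1 (0.0977), 2 (0.0755) or 3 (0.0876). All 30 had been picked by this same interaction test, so keeping the call follows largely from the choice. Blue light libraries were not left out in this check.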

How the results depend on the processing

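Of the 277 named genes 247 were called, and none of these reversed direction in blue light under the alternatives run there. In blue light, genes higher in cry1 numbered 3626 after quantile normalization and 1256 to 2385 when 1 library was left out, lowest without WT_Blue library 2, and genes lower 2014 to 2491. The causes of these and the following shifts were not tested. After TMM-type scaling 2178 of the 2201 higher and 2751 of the 2889 lower calls were shared, and after quantile normalization 2178 and 2668. The balance of the counts did turn after quantile normalization, to more higher than lower genes, 3626 against 3157 in blue light and 2659 against 2527 in the dark. In the dark, higher genes were 2439 after TMM-type scaling and 2659 after quantile normalization, and lower genes 2570 and 2527. Leaving out each dark library, chosen after seeing the data, gave 618 to 1116 higher and 2181 to 5317 lower genes in the dark and left the interaction counts within the ranges below. Without scaling the median dark difference of all genes was -0.30. Interaction calls that were higher numbered 3956 with array weights and 644 to 2139 when 1 library was left out, with 644 without cry1_Blue library 3, 721 without WT_Blue library 2, 926 without cry1_Blue library 2 and 934 without WT_Blue library 3. Those that were lower numbered 1026 after TMM-type scaling, 955 after quantile normalization, 305 without the filter, 1779 with array weights and 166 to 772 when 1 library was left out, with 166 without cry1_Blue library 3, 215 without WT_Blue library 2 and 265 without WT_Blue library 3. With the replicate number as a block, 1971 genes were higher and 2613 lower in blue light and 294 interaction calls were lower. Same-numbered libraries of the blue light groups did not deviate together (correlations of -0.338, -0.135 and -0.181). Whether they were grown or prepared together is not stated and cannot be read from these values. Of the 247 named genes called, 40 lost the call when some 1 library was left out and 2 under a scaling. A comparison with DESeq2 was not run because the values are not counts. Unknown depth limits what can be said of genes near 0.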

Other observations

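Counts for large enzyme and receptor families in cry1_Blue against WT_Blue stand beside 11.4% higher and 14.9% lower over all genes tested. Of 218 cytochrome P450 genes, oxidases of specialised metabolism and hormones, 130 passed the filter, 56 were higher and 21 lower, with 23 higher among genes that averaged at least 5 TPM. Of 314 receptor-like kinase genes 202 passed, 49 were higher and 45 lower (24.3% and 22.3% of those tested). The higher count was 24 without cry1_Blue library 2 or 3 and 21 without WT_Blue library 2. Of 128 UDP-glycosyltransferase genes, which attach sugars to small molecules, 90 passed, 16 were higher and 21 lower (17.78% and 23.33% of those tested). After quantile normalization 26 were higher. Of 17 listed genes of peroxidases and apoplastic oxidation 3 were higher and 7 lower. The peroxidase gene PRX57 was at 76.1, 86.6 and 83.7 TPM in cry1_Blue and 5.16, 1.76 and 12.1 TPM in WT_Blue (3.77 ± 0.43, limma adjusted p 6.57e-05). PRX33, a cell wall peroxidase, was at 5.99, 7.13 and 4.54 TPM in cry1_Blue and 50.4, 134 and 57.8 TPM in WT_Blue (-3.45 ± 0.37, limma adjusted p 4.73e-05). The groups overlapped in neither gene, with PRX57 high and PRX33 low in every cry1_Blue library.

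Of 17 cytokinin genes 5 were higher (38.5% of those tested) and 0 lower. The higher count was 3 without cry1_Blue library 1 or 3 or WT_Blue library 1 and 2 without WT_Blue library 2. CKX1, which degrades cytokinins, was at 2.86, 3.29 and 4.06 TPM in cry1_Blue and 1.36, 0.53 and 0.82 TPM in WT_Blue (1.22 ± 0.24, limma adjusted p 0.00239). Of 17 brassinosteroid genes 3 were higher and 1 lower (18.75% and 6.25% of those tested, against 11.4% and 14.9% of all genes). The higher count was 6 after TMM-type scaling, 7 after quantile normalization or without WT_Blue library 1, and 1 without cry1_Blue library 3 or WT_Blue library 2 or 3. The lower call, BAK1, was lost without cry1_Blue library 1 or 3 or WT_Blue library 2 or 3. BAS1, which inactivates brassinosteroids, was at 4.76, 4.37 and 4.17 TPM in cry1_Blue and 2.48, 1.59 and 1.71 TPM in WT_Blue (0.90 ± 0.20, limma adjusted p 0.00483). Of 17 vascular genes 3 were higher and 0 lower. That count was 7 after TMM-type scaling or without WT_Blue library 1, 8 after quantile normalization, 5 without cry1_Blue library 1 and 1 without cry1_Blue library 3 or WT_Blue library 2.

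Of 22 genes of root cell types other than hairs 3 were higher and 0 lower, with 2 lower without WT_Blue library 3 and 6 higher after TMM-type scaling, after quantile normalization, without the filter or with array weights. NRT1.5, which loads nitrate into the xylem, was at 144, 141 and 129 TPM in cry1_Blue and 47.9, 20.2 and 32.6 TPM in WT_Blue (2.09 ± 0.24, limma adjusted p 7.87e-05). All 3 cry1_Blue libraries lay well above all 3 of WT_Blue. Of 47 histone genes 1 was higher and 4 were lower, with 1 to 5 higher and 1 to 4 lower as single libraries were left out, 5 higher being without WT_Blue library 3. Of 18 guard cell and stomatal genes 1 was higher and 1 lower, and neither call held without cry1_Blue library 2 or 3 or WT_Blue library 2 or 3. Of 19 plastid transcription genes 1 was lower, SIG5, a call lost without any 1 of the blue light libraries other than WT_Blue library 2. Of 16 organelle ribosomal protein genes 1 was higher. Of 21 seed storage and embryo genes 4 passed the filter and 0 were called in limma, with 1 higher without cry1_Blue library 1 or WT_Blue library 1 or 3.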
